A study of Mus musculus with 8 samples.

Results

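The bile acid and drug transporters of mouse hepatocytes were taken as all protein-coding genes whose GRCm38 symbol begins with Slco, Slc22a, Slc10a, Abcb or Abcc followed by a digit. The rule found 66 genes among 55450 gene identifiers, of which 21951 are protein-coding. The uptake families held 46 genes (14 Slco, 25 Slc22a and 7 Slc10a), and the export families held 20 (10 Abcb and 10 Abcc). Primary hepatocytes of 8-week-old male C57BL/6 mice were cultured in serum-free medium with dexamethasone, and RNA-seq reads were counted per gene. LSKO cells (Alb-cre(+/+);Slc39a8(F/F)) carry a liver-specific knockout of Slc39a8, which encodes the metal and selenite transporter ZIP8, and were given manganese chloride, ferrous chloride, sodium selenite or zinc chloride at 2 µM, with 1 library each. Untreated LSKO cells gave 2 libraries, and untreated WT cells (Slc39a8(F/F) without Cre) gave 2 libraries. Every group therefore carried the floxed gene, the Cre was driven by the albumin promoter, and all metal-treated cells were knockout cells. The sources do not say whether replicates came from separate mice, so each p-value measures the spread between these libraries, which may be technical.

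Hepatocytes take bile acids, organic ions and drugs from sinusoidal blood and pass them, often after conjugation, into bile. The Slc10a family holds sodium-dependent bile acid carriers, the Slco family encodes the sodium-independent organic anion transporting polypeptides (OATPs), and the Slc22a family moves organic cations, anions and carnitine. Abcb and Abcc proteins are ATP-driven pumps of the canalicular, basolateral or mitochondrial membrane, and a few members, such as the sulfonylurea receptors Abcc8 and Abcc9, are channel subunits and not pumps. Much of this gene set is under the control of nuclear receptors and liver-enriched factors, and many of its genes are known to decline when hepatocytes are taken into culture.

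Levels are given as normalized CPM, a gene's reads relative to all reads in genes on the usual CPM scale, with library sizes adjusted by the trimmed mean of M values (TMM). Reads in genes numbered 19943899 to 27731054 per library. Differences were tested by edgeR's quasi-likelihood test in a model of 6 groups over all 8 libraries, and a call needed both an adjusted p (Benjamini-Hochberg, over all genes) below 0.05 and a log2 fold change above 0.5 or below -0.5. Of the 66 members, 42 had a sum of at least 80 counts and were tested, 24 of them uptake and 18 export members, among 15468 genes tested. Slc39a8 had 8.14 and 1.87 normalized CPM in untreated LSKO cells, against 12.7 and 15.5 in WT cells, and 1.48 to 3.17 in the 4 metal libraries, so LSKO replicate 1 lay between WT and the other knockout libraries. The counter set aside 0 reads as too low in quality in either untreated LSKO library, 62 with manganese and 592678 to 680199 in the other 5 libraries. With manganese 72.2% of reads lay in genes, and 39.3% to 42.1% did so in the other 7 libraries. Untreated LSKO cells and WT cells therefore differ also in this discard, while the iron, selenite and zinc libraries share it with WT, and manganese with untreated LSKO.

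All 8 hepatocyte markers fixed for the cells were counted, with Alb at 17690 to 43251 normalized CPM over the libraries, and the members' reads made up 0.114% to 0.135% of each library. Per kilobase of exon, the pumps led the order of levels. Abcc2 (MRP2, the canalicular exporter of conjugated bilirubin and glutathione conjugates) ranked first with a mean of 36.1 normalized CPM per kb, and Abcc3 (MRP3, a basolateral exporter of glucuronides) was second with 30.0. Their ranges over the 8 libraries overlapped, at 28.1 to 45.8 for Abcc2 and 23.6 to 35.2 for Abcc3. Slc22a18, an organic cation transporter-like protein, followed with 22.9, and Slc22a23 had 13.9. The carriers best known for hepatic bile acid uptake stood much lower, with means of 1.77 per kb for Slc10a1 (NTCP, the sodium-taurocholate cotransporter), 1.35 for Slco1a1 and 0.833 for Slco1b2. Abcb11 (BSEP, the bile salt export pump) had 2.52 per kb.

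Slc10a2 (ASBT), known as the bile acid carrier of the ileum and of cholangiocytes, stood above Slc10a1 per kilobase in every library. The ratio of Slc10a2 to Slc10a1 levels per kb was 3.82 with iron, 4.49 with manganese, 6.41 with selenite and 8.08 with zinc. It was 5.83 and 6.94 in untreated LSKO cells and 6.06 and 5.28 in WT cells. Among 6 cholangiocyte markers, Krt7 and Cftr were at 0 in 2 and 3 of the libraries and reached at most 0.257 and 0.0735 normalized CPM, Epcam at most 0.748, while Krt19 ran from 4.23 to 12.3, Sox9 from 7.85 to 13.0 and Spp1 from 9.61 to 62.6. The part of those cells in the Slc10a2 level was not tested. The summed cholangiocyte list was 25.8 normalized CPM with iron, 42.9 with either manganese or zinc and 71.4 with selenite. It was 65.9 and 49.4 in untreated LSKO cells and 83.4 and 88.0 in WT cells. Spp1 alone gave 41.4 and 26.9 of the untreated LSKO sums and 61.3 and 62.6 of the WT sums. Epcam, Krt7 and Cftr, all with few reads, went the other way. Epcam had 0.748 and 0.625 in untreated LSKO cells, against 0.277 and 0.0872 in WT cells. The LSKO and WT values of Krt19 and of Sox9 overlapped.

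**Figure D1:**
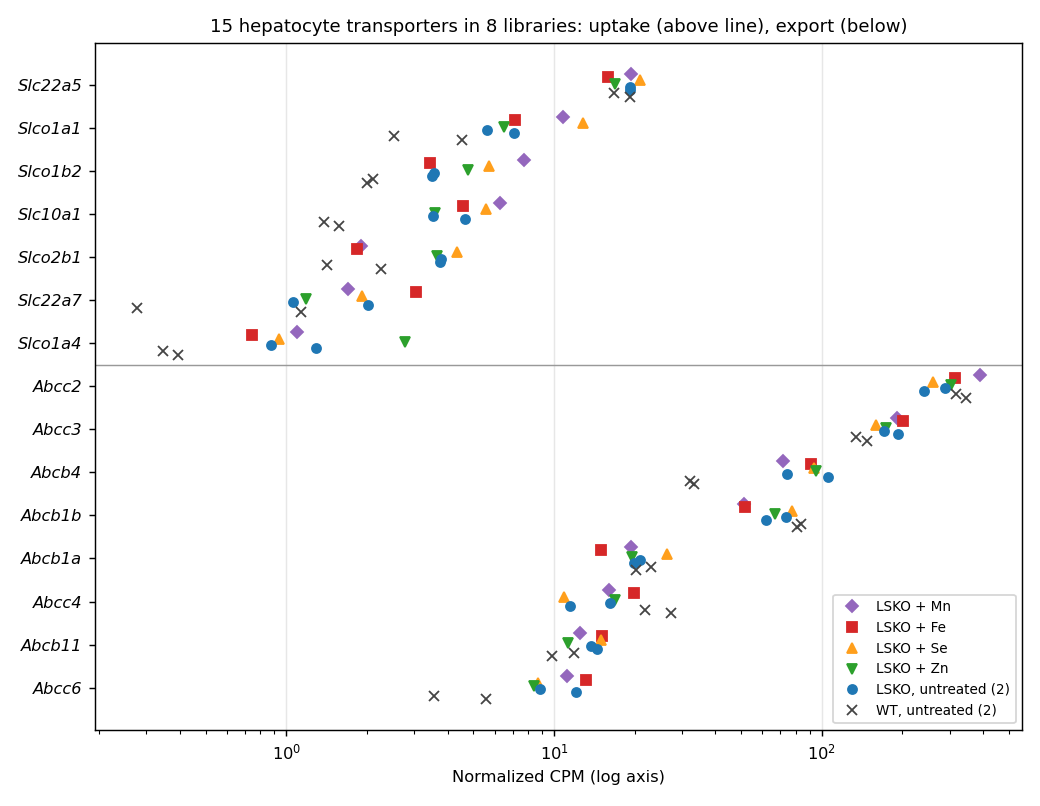
Normalized CPM (log axis) of 15 hepatocyte transporters followed in every library, with uptake members above the line and export members below it. Each point is 1 library. Both untreated LSKO points lie right of both WT points for Slc10a1, Slco1a1, Slco1a4, Slco1b2, Slco2b1, Abcb4, Abcb11, Abcc3 and Abcc6. They lie left of both WT points for Abcb1b, Abcc2 and Abcc4.

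The 24 members that were not tested took in 22 uptake genes and 2 export genes. No read was counted in any library for Abcb5, Slc22a2 (the renal cation transporter OCT2), Slc22a12, Slc22a16 and Slco6c1. A count of 0 allows up to 3 reads per library, or 0.104 to 0.149 normalized CPM. The other 19 summed to between 1 and 71 reads over the 8 libraries, and 14 of them to fewer than 20. The renal anion transporters Slc22a6 and Slc22a8 had 1 and 3 reads in all, and Slco4a1 had 17 reads, of which 12 fell in WT replicate 1. The most counted of this group was Slc22a30 with 71 reads, of which 17 came with manganese, 6 with iron, 16 with selenite, 6 with zinc, 5 and 13 in untreated LSKO cells and 1 and 7 in WT cells. Slc22a30 belongs to a cluster of related anion carriers on chromosome 19, and 29.6% of the 75-base windows of its longest transcript were also found in transcripts of other genes.

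Between untreated LSKO and WT cells, 11 of 24 tested uptake members were called higher, 13 were not called, and 15 of 18 export members were not called. Of the 42 members tested, 13 were called higher and 1 lower, against 6.74% of all genes tested that were called higher and 3.7% called lower. Of the 24 uptake members, 18 had a log2 fold change above 0, against 50.5% of all genes tested, and edgeR called 0 lower. At an unadjusted p under 0.05, 13 uptake members were higher and 1 (Slco5a1) lower, and DESeq2 called 1 of all members lower, Abcc4. Of the 18 export members, 2 were called higher (Abcb4 and Abcc6) and 1 lower (Abcc4). The median log2 fold change was 0.57 over the uptake members and 0.04 over the export members, beside 0.0028 over all genes tested. The hepatocyte markers moved in the same direction as the called carriers: 7 of the 8 were called higher with a median of 1.22, and their summed level was 28005 and 35598 normalized CPM in untreated LSKO cells, against 20230 and 19181 in WT cells. The part of hepatocyte content in the higher carrier calls was not tested, and in these bulk samples more cells of a type cannot be told apart from more RNA per cell.

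The promoter windows of 6 members are shown because the data set them apart: Slc10a1, Slc10a2, Slco1b2 and Abcb4 were higher in LSKO cells, Abcc4 was lower, and Abcc2 was the most abundant member and not called. Windows run from 250 bases before to 50 bases after the RefSeq start (GRCm38.p6), written 5′ to 3′ on the gene's strand. Capitals mark matches, on either strand, to the antioxidant response element core TGACNNNGC (N is any base), the nuclear receptor half-site AGGTCA, the HNF1 half-site GTTAAT or the TATA box TATAAA. The first and the second motif can overlap, since the reverse complement of the half-site begins with TGAC.
Slc10a1 (chr12:80968656-80968955, minus strand): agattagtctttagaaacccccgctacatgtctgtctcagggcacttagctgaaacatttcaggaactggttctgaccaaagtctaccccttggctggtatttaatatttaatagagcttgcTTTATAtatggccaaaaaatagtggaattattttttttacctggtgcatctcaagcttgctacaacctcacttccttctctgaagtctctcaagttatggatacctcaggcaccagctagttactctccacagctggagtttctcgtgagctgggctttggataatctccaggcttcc
Slc10a2 (chr8:5105238-5105537, minus strand): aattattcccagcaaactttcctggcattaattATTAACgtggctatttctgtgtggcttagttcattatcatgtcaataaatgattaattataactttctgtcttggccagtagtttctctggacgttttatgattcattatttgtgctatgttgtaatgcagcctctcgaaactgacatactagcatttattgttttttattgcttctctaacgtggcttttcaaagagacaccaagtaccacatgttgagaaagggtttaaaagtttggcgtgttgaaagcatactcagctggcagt
Slco1b2 (chr6:141629268-141629567, plus strand): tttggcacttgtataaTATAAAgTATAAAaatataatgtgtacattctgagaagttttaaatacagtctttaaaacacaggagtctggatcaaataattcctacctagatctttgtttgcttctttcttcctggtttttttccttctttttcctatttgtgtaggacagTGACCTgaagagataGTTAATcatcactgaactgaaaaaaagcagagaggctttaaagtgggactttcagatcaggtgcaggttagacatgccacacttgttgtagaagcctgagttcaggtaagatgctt
Abcb4 (chr5:8893471-8893770, plus strand): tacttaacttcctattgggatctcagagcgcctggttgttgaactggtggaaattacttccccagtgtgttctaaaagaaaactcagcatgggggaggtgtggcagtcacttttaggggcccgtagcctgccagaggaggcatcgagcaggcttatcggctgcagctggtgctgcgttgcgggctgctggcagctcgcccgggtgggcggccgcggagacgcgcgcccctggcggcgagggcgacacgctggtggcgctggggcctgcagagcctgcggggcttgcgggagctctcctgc
Abcc4 (chr14:118706170-118706469, minus strand): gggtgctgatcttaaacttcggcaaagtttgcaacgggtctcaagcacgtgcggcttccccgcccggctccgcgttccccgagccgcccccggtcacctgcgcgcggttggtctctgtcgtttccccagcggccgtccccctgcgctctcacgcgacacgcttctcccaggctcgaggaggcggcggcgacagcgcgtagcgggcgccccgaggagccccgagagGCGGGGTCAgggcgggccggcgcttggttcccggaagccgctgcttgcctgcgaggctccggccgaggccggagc
Abcc2 (chr19:43782058-43782357, plus strand): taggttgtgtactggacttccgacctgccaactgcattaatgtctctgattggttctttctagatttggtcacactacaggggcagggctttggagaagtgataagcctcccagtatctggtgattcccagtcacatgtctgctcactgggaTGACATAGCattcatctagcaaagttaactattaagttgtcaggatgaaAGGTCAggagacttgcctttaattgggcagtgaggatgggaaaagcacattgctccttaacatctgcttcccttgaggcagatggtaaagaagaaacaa

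Windows were matched for 53 of the 66 members, with 61 windows. The antioxidant response element core was found in 16.4% of the members' windows, against 12.4% of all 32851 windows of the same length. The nuclear receptor half-site was in 18.0% of the members' windows, against 16.3% of all, the HNF1 half-site in 8.20%, against 7.10%, and the TATA box in 16.4%, against 13.6%. Over the 35 windows of tested members the shares were 20% for the antioxidant response element core, 25.7% for the nuclear receptor half-site, 5.71% for the HNF1 half-site and 14.3% for the TATA box, from 7, 9, 2 and 5 windows. Slc10a1 and Abcc4 each have a second window that is not printed. The unprinted one of Slc10a1 holds the nuclear receptor half-site, and that of Abcc4 holds the antioxidant response element core. Of the printed windows, those of Abcc2 and Abcc4 hold the antioxidant response element core, Slco1b2 and Abcc2 hold the nuclear receptor half-site, Slco1b2 and Slc10a2 hold the HNF1 half-site, and Slco1b2 and Slc10a1 hold the TATA box. Abcb4 holds no match in a window of 64% GC. The printed windows of the 4 rising genes share no motif of the 4, and a match describes letters only.

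The Slc10a family showed the rise most broadly, with 5 of 6 tested members called higher and a median log2 fold change of 1.31. Slc10a1 had 3.52 and 4.67 normalized CPM in untreated LSKO cells, against 1.39 and 1.57 in WT cells. Both LSKO libraries lay above both WT libraries (log2 fold change 1.48, SE 0.25, adjusted p = 0.00281). Slc10a2 had 38.7 and 61.2 normalized CPM in untreated LSKO cells, against 15.9 and 15.6 in WT cells, a log2 fold change of 1.67 (SE 0.18, adjusted p = 0.000141) with no overlap. Slc10a6 (SOAT, a carrier of sulfated steroids) had 2.82 and 4.81 normalized CPM in untreated LSKO cells, against 1.77 and 1.22 in WT cells (log2 fold change 1.34, adjusted p = 0.0154). The orphan members Slc10a5 and Slc10a3 also rose. Slc10a5 had 3.83 and 5.11 normalized CPM in untreated LSKO cells, against 1.98 and 1.70 in WT cells (log2 fold change 1.28, adjusted p = 0.00634). Slc10a3 had 20.7 and 22.7 normalized CPM in untreated LSKO cells, against 15.4 and 14.3 in WT cells, a smaller log2 fold change of 0.54 (adjusted p = 0.00838). Slc10a7, which is not a bile acid carrier, was the member not called, with 10.3 and 12.0 normalized CPM in untreated LSKO cells, against 10.1 and 10.5 in WT cells.

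Of 7 tested OATP genes 4 were called higher, all of them at low levels. Slco1a1 had 5.63 and 7.06 normalized CPM in untreated LSKO cells, against 2.53 and 4.53 in WT cells (log2 fold change 0.87, SE 0.25, adjusted p = 0.0437). Slco1b2, the mouse counterpart of the human hepatic OATP1B carriers, had 3.56 and 3.49 normalized CPM in untreated LSKO cells, against 2.11 and 2.01 in WT cells (log2 fold change 0.77, SE 0.22, adjusted p = 0.0377). Slco1a4 had 0.88 and 1.29 normalized CPM in untreated LSKO cells, against 0.347 and 0.392 in WT cells, from 20 and 35 reads against 10 and 9 (log2 fold change 1.56, SE 0.44, adjusted p = 0.0392). Slco2b1 had 3.78 and 3.75 normalized CPM in untreated LSKO cells, against 1.42 and 2.27 in WT cells (log2 fold change 1.05, SE 0.27, adjusted p = 0.0274). In each of these genes the LSKO libraries did not overlap the WT libraries. Slco2a1, the prostaglandin transporter, was the most abundant OATP gene and was not called, at 118 and 110 normalized CPM in untreated LSKO cells, against 114 and 121 in WT cells.

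In the Slc22a family 2 of 11 tested members were called higher. Slc22a27, an anion carrier of the cluster on chromosome 19, had 24 and 26 reads in untreated LSKO cells, against 1 and 7 reads in WT cells (log2 fold change 2.64, SE 0.67, adjusted p = 0.0238). The ratio of its summed reads, scaled to library size, was 6.48, with an exact 95% interval of 3.05 to 15.8 that covers counting error only, and 16.8% of its 75-base windows were shared with other genes of the cluster. Slc22a5 (OCTN2, the carnitine transporter) had 19.2 and 19.2 normalized CPM in untreated LSKO cells, against 16.7 and 19.2 in WT cells, and was not called (adjusted p = 0.621). Slc22a7 (OAT2) had 1.06 and 2.02 normalized CPM in untreated LSKO cells, against 0.277 and 1.13 in WT cells, and these overlap (log2 fold change 1.20, SE 0.55, adjusted p = 0.18). Slc22a4 and Slc22a5 belong to a cluster in which 18.0% of the 75-base windows of Slc22a5 were shared with Slc22a21, so counts of that pair are uncertain.

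Among the pumps, Abcb4 (MDR2, which moves phosphatidylcholine into bile) carried the firmest change. It had 74.1 and 106 normalized CPM in untreated LSKO cells, against 32.3 and 33.4 in WT cells (log2 fold change 1.46, SE 0.14, adjusted p = 7.69e-05). Abcc6 (MRP6, through which hepatocytes release ATP) had 8.89 and 12.1 normalized CPM in untreated LSKO cells, against 3.57 and 5.58 in WT cells (log2 fold change 1.21, SE 0.23, adjusted p = 0.00494). Abcc4 (MRP4, a basolateral pump of bile acids and cyclic nucleotides) was lower, with 16.1 and 11.5 normalized CPM in untreated LSKO cells, against 21.9 and 27.4 in WT cells (log2 fold change -0.84, SE 0.17, adjusted p = 0.00733). Each of these 3 pumps had LSKO libraries that lay wholly on one side of the WT libraries.

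The canalicular bile salt and drug pumps were not called, nor was the basolateral pump Abcc3. Abcb11 had 13.7 and 14.5 normalized CPM in untreated LSKO cells, against 11.8 and 9.85 in WT cells (log2 fold change 0.38, SE 0.14, adjusted p = 0.0955). Abcc2 had 289 and 240 normalized CPM in untreated LSKO cells, against 317 and 345 in WT cells, an adjusted p of 0.0446 with a log2 fold change of -0.32 that is inside the limit of 0.5. Abcc3 had 171 and 192 normalized CPM in untreated LSKO cells, against 134 and 147 in WT cells (log2 fold change 0.37, adjusted p = 0.0159), also inside that limit. Abcb1a and Abcb1b are the P-glycoprotein genes, which pump hydrophobic drugs. Abcb1a had 20.9 and 19.9 normalized CPM in untreated LSKO cells, against 22.9 and 20.2 in WT cells (adjusted p = 0.673). Abcb1b had 73.6 and 62.1 normalized CPM in untreated LSKO cells, against 83.9 and 80.6 in WT cells (log2 fold change -0.28, adjusted p = 0.07). Abcb1a shared 11.4% and Abcb1b 12.6% of its 75-base windows with another gene, so reads of this pair may be split.

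**Figure D2:**
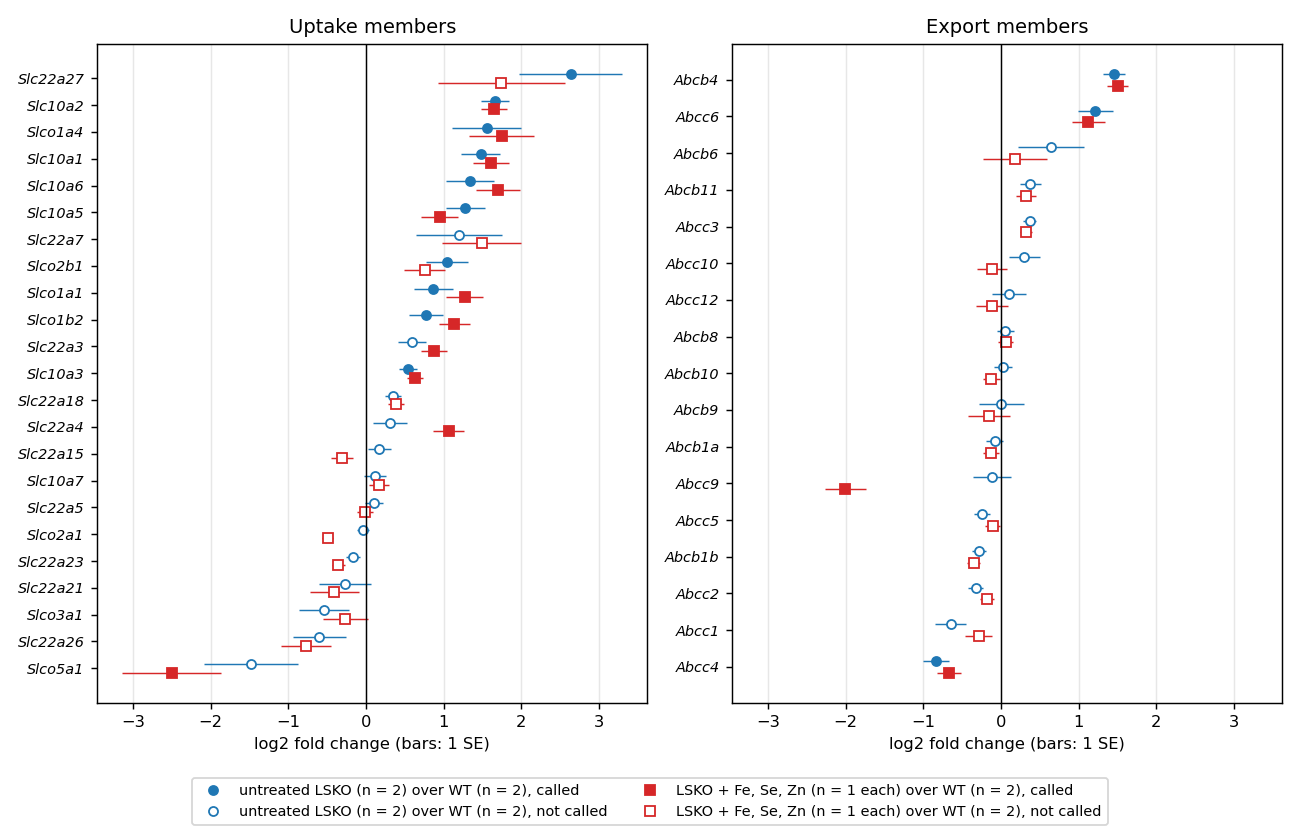
Log2 fold changes with 1 SE of 40 of the 42 tested members, uptake on the left and export on the right, for untreated LSKO over WT cells (circles) and for the mean of iron-, selenite- and zinc-treated LSKO over WT cells (squares). Filled symbols were called, and the filled symbols above 0 lie mostly among the uptake members.

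The genotype calls rest on few libraries. Without WT replicate 1 the test called 3 members (Slc10a2, Abcb4 and Abcc4), without WT replicate 2 it called 7, without LSKO replicate 2 it called 8 and without LSKO replicate 1 it called 17, beside 14 from all libraries, and DESeq2 called 8. Slc10a2 and Abcb4 were called in every alternative run.

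A further comparison used LSKO and WT libraries that share the discard of low-quality reads. It set the mean of the iron, selenite and zinc libraries against the same WT libraries. These LSKO cells were all metal-treated and the WT cells untreated, so genotype and treatment cannot be told apart here. Here 13 members were called higher and 3 lower, against 7.12% and 6.93% of all genes tested. The uptake members gave 11 of 24 higher and 1 lower, and the export members 2 of 18 higher and 2 lower. The WT libraries are shared with the comparison above and the 3 treated libraries differ in metal, so its values stand beside the first and are not independent of them. The log2 fold changes here and in untreated LSKO cells were 1.61 and 1.48 for Slc10a1, 1.65 and 1.67 for Slc10a2, and 1.5 and 1.46 for Abcb4. They were 1.14 and 0.77 for Slco1b2, 1.27 and 0.87 for Slco1a1, and -0.67 and -0.84 for Abcc4.

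Per library, Slc10a1 had 4.58 normalized CPM with iron, 5.58 with selenite and 3.58 with zinc, all above both WT values. Abcb4 had 90.9, 93.4 and 94.8 with these metals, and Slc10a2 had 33.1, 67.5 and 54.7, again above both WT libraries. Abcc6 had 13.2, 8.74 and 8.39 (log2 fold change 1.13, adjusted p = 0.0038) and Slc10a6 had 4.73, 6.91 and 3.66 (1.70, adjusted p = 0.0021). Slc10a5 with 2.74, 4.94 and 3.38 normalized CPM (0.95, adjusted p = 0.0148), Slc10a3 with 19.5, 23.7 and 26.8 (0.63, adjusted p = 0.00168) and Slco1a4 with 0.747, 0.938 and 2.77 (1.75, adjusted p = 0.0125) were also called higher. Slco2b1 had 1.84, 4.34 and 3.66, with the iron library between the WT libraries, and was not called here (0.76, adjusted p = 0.054). Slc22a27 had 2 reads with iron beside 23 with selenite and 33 with zinc, and was not called (1.75, adjusted p = 0.141).

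Beside Abcc4, Abcc9 and Slco5a1 were called lower than WT in the metal libraries, and neither was called in untreated LSKO cells. Whether the metal libraries differ from untreated LSKO cells in Slco5a1 was tested for each metal alone, with no call. Abcc9 (SUR2, a subunit of potassium channels known from muscle and mural cells) had 0.398 normalized CPM with iron, 1.28 with selenite and 1.14 with zinc, against 3.47 and 3.27 in WT cells (log2 fold change -2.0, SE 0.26, adjusted p = 0.000489). Untreated LSKO cells had 2.95 and 3.27 (log2 fold change over WT -0.11). Slco5a1 had 2 reads with iron, 3 with selenite and 15 with zinc, against 30 and 32 in WT cells (log2 fold change -2.50, SE 0.64, adjusted p = 0.0161), and 17 and 4 reads in untreated LSKO cells. In the same comparison 5 of 8 stellate cell and fibroblast markers were called lower and 1 higher, and all 6 sinusoidal endothelial markers were called lower. Of 7 tested Kupffer cell and macrophage markers, 3 were called higher and 4 were not called, with a median log2 fold change of 0.37. The stellate list summed to 18.0 normalized CPM with iron, 42.3 with selenite and 34.8 with zinc, against 44.2 and 44.6 in WT cells. The endothelial list summed to 76.5, 105 and 94.5 normalized CPM with these metals, against 177 and 183 in WT cells. Their part in the Abcc9 and Slco5a1 falls was not tested.

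**Figure D3:**
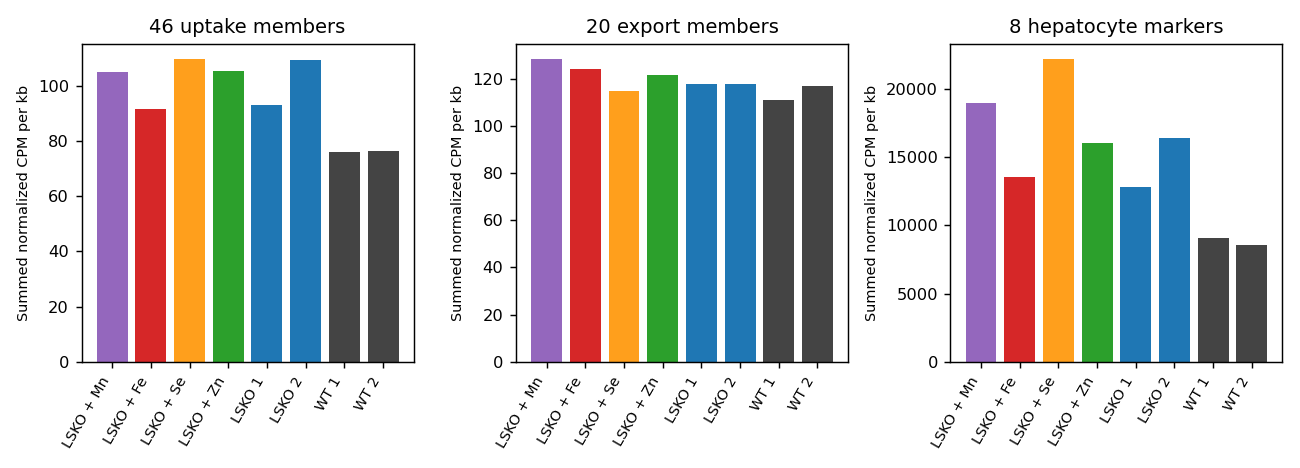
Summed normalized CPM per kb of the 46 uptake members, the 20 export members and the 8 hepatocyte markers, 1 bar per library. The uptake sum was 91.7 to 110 in the 6 LSKO libraries, above 76.0 and 76.5 in the WT libraries, while the export sum ran from 115 to 128 in LSKO libraries and was 111 and 117 in WT libraries.

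Summed per kilobase, uptake members made up 44.1% and 48.2% of the members' level in untreated LSKO cells, against 40.7% and 39.6% in WT cells. The share was 42.5% with iron, 45% with manganese, 46.4% with zinc and 48.9% with selenite. The Slc10a genes summed to 24.6 and 32.9 normalized CPM per kb in untreated LSKO cells, against 14.5 and 13.7 in WT cells, the Slc22a genes to 56.8 and 65.3, against 51.4 and 51.8 in WT cells, and the Slco sum was 11.6 and 11.2, against 10.1 and 11 in WT cells.

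Each metal was then compared with untreated LSKO cells, to see what supplementation did to knockout cells. Each treated group has 1 library, for which the test uses the spread within the pairs of untreated libraries, and all 4 comparisons share the same untreated libraries. The iron, selenite and zinc libraries also differ from untreated LSKO cells in the discard of low-quality reads, so metal and discard cannot be told apart there. The manganese library shares the discard with untreated LSKO cells but differs in its share of reads in genes. With manganese 2 members were called higher and 1 lower, against 2.09% and 15.1% of all genes tested. With iron 0 were higher and 2 lower, against 3.8% and 4.89%. At an unadjusted p under 0.05, 1 uptake and 1 export member were higher with iron (Slc22a4 and Abcc4), and DESeq2 called 0 higher. With selenite 2 were higher and 4 lower, against 7.89% and 9.67%. With zinc 1 was higher and 1 lower, against 2.9% and 1.55%. Out of 42 tested members, these counts are close to the background or below it.

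Manganese was the metal with which Slco1b2 and Abcc2 were called. Slco1b2 had 7.74 normalized CPM with manganese, against 3.56 and 3.49 in untreated LSKO cells (log2 fold change 1.13, SE 0.23, adjusted p = 0.00416). Abcc2 had 391 normalized CPM with manganese, its highest level in any library, against 289 and 240 in untreated LSKO cells (log2 fold change 0.56, SE 0.11, adjusted p = 0.0042). When only genes without exons on the opposite strand were fitted, no member was called with manganese, with adjusted p of 0.0749 for Slco1b2 and 0.0963 for Abcc2. Slco1a1, at 10.8 normalized CPM with manganese against 5.63 and 7.06 in untreated LSKO cells, did not pass (adjusted p = 0.0821).

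Slc22a3 (OCT3, an organic cation transporter) nearly vanished from the manganese library, and its counts go with the neighbouring gene Plg. It had 2 reads with manganese, against 305 and 498 in untreated LSKO cells (log2 fold change -7.47, adjusted p = 7.65e-07), a ratio of 0.00526 with an exact 95% counting interval of 0.000636 to 0.0191. Its exons overlap those of Plg, the plasminogen gene on the opposite strand, over 420 bases or 9.31% of its exon length. Plg had 3574 reads with manganese. Slc22a3 reads were 0.0560% of Plg reads there, against 13.8% and 14.2% in untreated LSKO cells, 14.5% with iron, 19.8% with selenite, 15.3% with zinc and 18.4% and 14.3% in WT cells. With no strand setting stated, reads of Slc22a3 and opposite-strand reads of Plg cannot be told apart. Its other calls, 0.72 with selenite against untreated LSKO (26.2 normalized CPM against 13.4 and 18.3, adjusted p = 0.028) and 0.88 in the metal libraries against WT (adjusted p = 0.00376), carry the same limit, and Plg itself rose by 0.89 on the log2 scale in that last comparison.

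**Figure D4:**
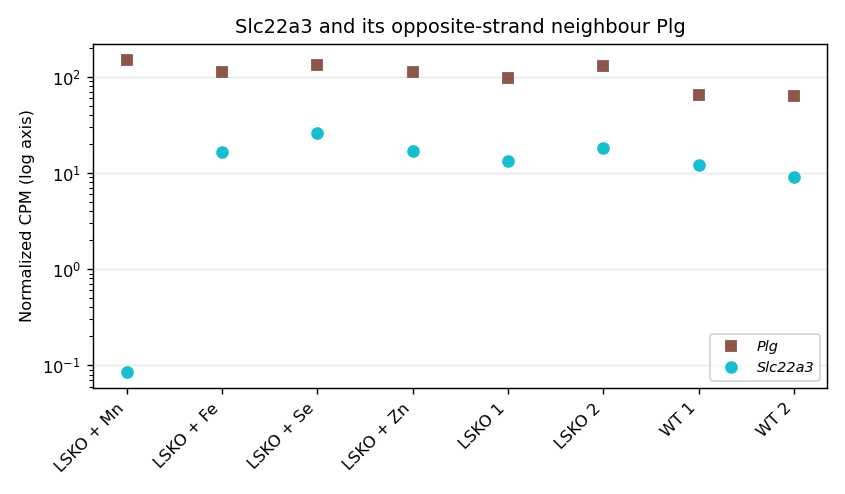
Normalized CPM (log axis) of Slc22a3 and of Plg, its neighbour on the opposite strand, in the 8 libraries. Slc22a3 lies at 9.02 to 26.2 in 7 libraries and at 0.0846 with manganese, where Plg is highest at 151.

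Other members overlap opposite-strand exons too, 11 in all and 10 of those tested, beside 36.0% of all genes tested. Gm42686, opposite Abcb1a over 553 bases, and Gm5106, opposite Abcb1b over 143 bases, fell to 1 and 2 reads in the manganese library. Abcb1a itself had 19.3 normalized CPM with manganese, against 20.9 and 19.9 in untreated LSKO cells. Gm15635, opposite Slco2b1 over 471 bases, had 11 reads with manganese and 21 with iron. It had 58 and 102 reads in untreated LSKO cells and 56 and 42 in WT cells. Where they overlap, reads of Slco2b1 and Gm15635 cannot be told apart, so all Slco2b1 values carry this limit. Among transporters outside the 5 families, Slc51a (OSTα, a basolateral bile acid exporter subunit) had 0.0423 normalized CPM with manganese, against 8.89 and 8.20 in untreated LSKO cells. Its exons overlap those of Pcyt1a on the opposite strand, so this value carries the limit given for Slc22a3. Slc51a is 1 of 2 called lower of 9 tested, against 15.1% of all genes tested.

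Abcc9 and Slc22a15 were called lower with iron. Abcc9 had 8 reads with iron, against 67 and 89 in untreated LSKO cells (log2 fold change -2.95, SE 0.45, adjusted p = 0.00234). Of the markers of other liver cells, 3 of 8 stellate and fibroblast and 5 of 6 endothelial markers were called lower with iron. Of 7 tested Kupffer cell and macrophage markers, 3 were called lower, against 4.89% of all genes tested. Acta2 was lower by 3.76 and Kdr by 2.71 on the log2 scale. The Kupffer cell and macrophage list had a median log2 fold change of -0.11. It summed to 306 normalized CPM with iron, against 239 and 275 in untreated LSKO cells. The part of these cells in the Abcc9 fall was not tested. Slc22a15 had 6.62 normalized CPM with iron, against 11.5 and 11.2 in untreated LSKO cells (log2 fold change -0.78, SE 0.20, adjusted p = 0.0288, and 0.17 from DESeq2). Slc10a2 had 33.1 normalized CPM with iron, against 38.7 and 61.2 in untreated LSKO cells, and was not called (adjusted p = 0.0928).

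Set against the mean of selenite and zinc, a comparison chosen after seeing the data, iron had 7 members called in either direction, against 18.1% of all genes tested. Slc22a27 was lowest, with 2 reads with iron against 23 and 33 with selenite and zinc, a ratio of 0.0797 (exact 95% counting interval 0.00942 to 0.302). Abcc9 was lower by 1.59 and Slc10a2 by 0.88 on the log2 scale (adjusted p = 0.0373 and 0.0135). Slco2b1 fell by 1.11, Slc22a26 by 1.66 and Abcb1a by 0.60, and Slc22a23 was higher by 0.53. DESeq2 called 1 member in this comparison.

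**Figure D5:**
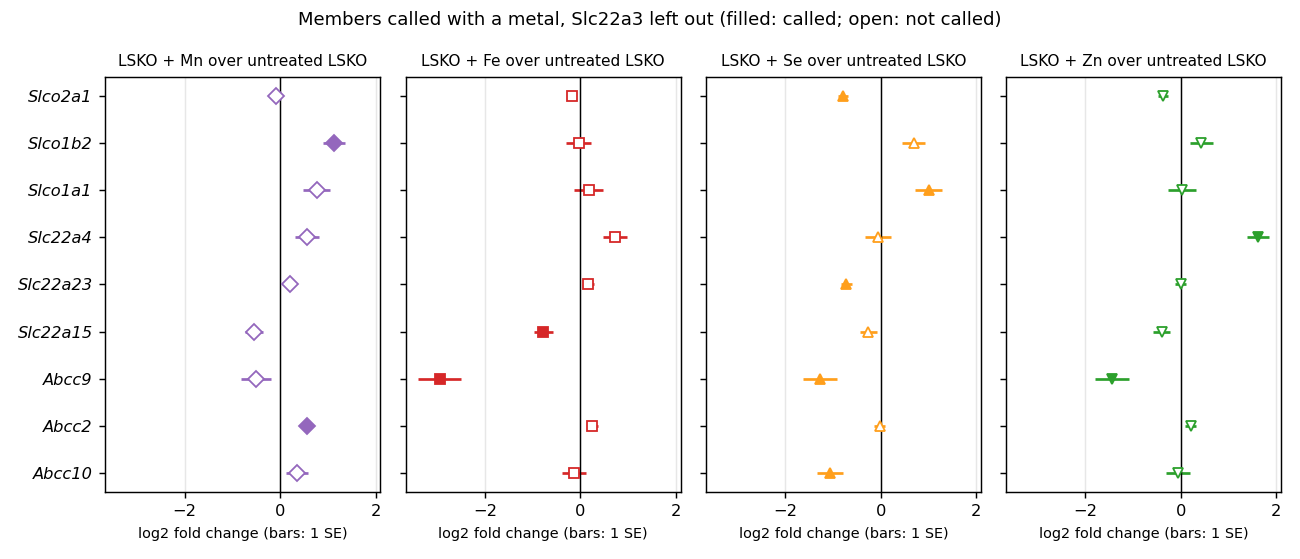
Log2 fold changes with 1 SE of the 9 members called with at least 1 metal, Slc22a3 left out, for manganese, iron, selenite and zinc over untreated LSKO cells. Filled symbols were called, and Abcc9 is the gene called lower with iron, selenite and zinc.

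With selenite, Slco1a1 was the carrier called higher beside Slc22a3. Slco1a1 had 12.8 normalized CPM with selenite, against 5.63 and 7.06 in untreated LSKO cells (log2 fold change 1.01, SE 0.28, adjusted p = 0.0232). The lower calls were Slco2a1, Slc22a23, Abcc10 and Abcc9. Slco2a1 had 66.0 normalized CPM with selenite, against 118 and 110 in untreated LSKO cells (log2 fold change -0.79, SE 0.10, adjusted p = 0.000521). Slc22a23 had 53.1 normalized CPM with selenite, against 85.9 and 88.8 in untreated LSKO cells (-0.72, adjusted p = 0.00218). Abcc10 (MRP7) had 2.17 normalized CPM with selenite, against 4.40 and 4.67 in untreated LSKO cells (-1.06, adjusted p = 0.0186). Abcc9 had 1.28 normalized CPM with selenite, against 2.95 and 3.27 in untreated LSKO cells (-1.28, adjusted p = 0.0244). With selenite 4 of 8 hepatocyte markers were called higher, against 7.89% of all genes tested. So were 2 of 7 tested Kupffer cell and macrophage and 1 of 3 tested cholangiocyte markers. Called lower were 3 of 6 endothelial and 2 of 8 stellate and fibroblast markers, against 9.67%. The part of cell content in these transporter calls was not tested.

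When values were corrected for GC content and length, 1 of the 6 selenite calls remained, that of Slc22a3 (log2 fold change 0.86). Its reads cannot be told apart from opposite-strand reads of Plg. The log2 fold change became -0.34 for Slco2a1, -0.26 for Slc22a23, -0.52 for Abcc10, 0.80 for Slco1a1 and -1.06 for Abcc9, none of them past the call. Against the mean of iron and zinc, again chosen after seeing the data, selenite had 10 members called, against 15.9% of all genes tested, and 3 with the correction. Abcb1a was higher there by 0.63 (26.5 normalized CPM with selenite, against 14.9 with iron and 19.5 with zinc, adjusted p = 0.00912) and kept its call in every alternative that fitted it. Abcc4 was lower by 0.75 on the log2 scale and Slc10a2 higher by 0.67, and both lost the call with the correction.

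Zinc was the metal with which Slc22a4 (OCTN1, the ergothioneine transporter) rose. It had 9.41 normalized CPM from 231 reads with zinc, against 2.99 and 3.16 in untreated LSKO cells (log2 fold change 1.61, SE 0.23, adjusted p = 0.00192), and 2.32 and 2.66 in WT cells. The iron library had 5.08, manganese 4.53 and selenite 2.96. Set against the mean of iron and selenite, a comparison chosen after seeing the data in which 0.524% of all genes tested were called, Slc22a4 was the 1 member called, with a log2 fold change of 1.28 (SE 0.23, adjusted p = 0.043). DESeq2 did not call it there (adjusted p = 0.374), nor did the test without WT replicate 1 (0.147), without WT replicate 2 (0.148) or without genes that have opposite-strand exons (0.0607). In the iron, selenite and zinc libraries against WT it was called higher with 1.07 (adjusted p = 0.0034). Abcc9 was lower with zinc, with 1.14 normalized CPM against 2.95 and 3.27 in untreated LSKO cells (-1.45, adjusted p = 0.0408, and 0.396 from DESeq2). Slco1a4 had 2.77 normalized CPM with zinc, against 0.88 and 1.29 in untreated LSKO cells, and did not pass (1.34, adjusted p = 0.105).

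Of the remaining members of the hepatocyte set, none was called between a metal and untreated LSKO cells. Abcb11 had 12.5, 15.1, 15.0 and 11.2 normalized CPM with manganese, iron, selenite and zinc, against 13.7 and 14.5 in untreated LSKO cells, with log2 fold changes from -0.33 to 0.09 and none called. Abcc3 had 191, 200.3, 159 and 173 normalized CPM in that order, against 171 and 192 in untreated LSKO cells. Abcb1b had 51.2, 51.6, 77.4 and 67.1, against 73.6 and 62.1, and its manganese value had an adjusted p of 0.0327 with a log2 fold change of -0.40. Abcb1a had 19.3, 14.9, 26.5 and 19.5, against 20.9 and 19.9, and its iron value had a log2 fold change of -0.45 and an adjusted p of 0.0712. Slc22a7 had 1.69, 3.04, 1.92 and 1.18 normalized CPM with the metals in the same order, against 1.06 and 2.02 in untreated LSKO cells, so that the iron value lay above both. Slc22a5 had 19.4, 15.9, 20.9 and 16.9. Abcc4 had 16, 19.96, 10.9 and 16.9 normalized CPM in that order, the selenite value below both untreated LSKO libraries.

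The carriers raised in LSKO cells kept levels above both WT libraries with manganese in all but 1 case. With manganese Slc10a1 had 6.26 normalized CPM, Slc10a2 53.2, Slc10a3 25.9, Slc10a5 3.09 and Slc10a6 4.40. Abcb4 had 71.6 and Abcc6 11.2 normalized CPM with this metal, and Slco1a4 had 1.10. Slco2b1, which overlaps Gm15635 on the opposite strand, was the exception, at 1.90, between the WT libraries. Slc22a27 had 16 reads with manganese and Slco5a1 had 9. Slco1a1 had 7.17 normalized CPM with iron and 6.47 with zinc, and Slco1b2 had 3.44 with iron, 5.72 with selenite and 4.76 with zinc, all above both WT values. Abcc2 had 314 normalized CPM with iron, 261 with selenite and 305 with zinc, of which the iron and zinc values lay above both untreated LSKO libraries.

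The members called with a metal had their WT levels as follows. Slco2a1 had 108 normalized CPM with manganese, 101 with iron and 88.2 with zinc, all below both WT libraries (114 and 121). Slc22a23 had 101, 97.9 and 87.1 normalized CPM with these metals, against 89.6 and 107 in WT cells. Slc22a15 had 7.79 normalized CPM with manganese, 9.53 with selenite and 8.59 with zinc, against 10.9 and 9.28 in WT cells. Abcc10 had 5.80 normalized CPM with manganese, 4.13 with iron and 4.36 with zinc, against 3.74 and 3.62 in WT cells, so the selenite library was lowest of all 8. Abcc9 had 2.20 normalized CPM with manganese, below both untreated LSKO values and not called (log2 fold change -0.50, adjusted p = 0.336).

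Genes known to act on these transporters were compared in the same way. Of 14 regulators and scaffold proteins tested, 6 were called higher in untreated LSKO cells, against 6.74% of all genes tested, and the other 8 did not pass the call. Their median log2 fold change was 0.52, beside 1.22 over the 8 hepatocyte markers, and their part in the transporter calls was not tested. Nr1i2 (PXR, a sensor of drugs and bile acids) had 15.5 and 22.9 normalized CPM in untreated LSKO cells, against 7.90 and 8.28 in WT cells (log2 fold change 1.25). Hnf4a, the liver nuclear factor, had 189 and 245 normalized CPM in untreated LSKO cells, against 135 and 147 in WT cells (0.63). Nr1h4 (FXR, the bile acid receptor) had 30.7 and 33.4 normalized CPM in untreated LSKO cells, against 20.3 and 21.1 in WT cells (0.63). Pdzk1, Ahr and Ppara also rose, by 0.64, 0.58 and 0.72 on the log2 scale. Exons of Pdzk1 and of Ahr overlap exons on the opposite strand, so their values carry the limit given for Slc22a3. With manganese Pdzk1 had 2.03 normalized CPM, against 9.95 and 11.2 in untreated LSKO cells. Ahr had 32.7 with manganese, against 32.3 and 41.6 in untreated LSKO cells. Nfe2l2 (NRF2, known to act through the antioxidant response element) was not called between untreated LSKO and WT cells (0.09), and was lower with manganese (-0.66) and iron (-0.56). Of the 9 tested transporters of bile and lipids outside the 5 families, Abcg5, of the sterol exporter pair, and Slc47a1 (MATE1) were higher in untreated LSKO cells, by 1.33 and 0.95. Exons of Abcg5 overlap those of Abcg8 on the opposite strand, so its value carries the same limit.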

How the data were processed

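RNA-seq of 8 libraries of primary mouse hepatocytes was used. Raw counts of reads per gene were deposited, without normalization. The submitters' processing notes name Trimmomatic, HISAT2 and HTSeq with GRCm38, and DESeq2 for the authors' own comparison. For strand setting, quality cutoff and annotation release, the values were not given in the sources used here. Labels, design text and paper differ on the read layout and on the length of incubation (24 h or overnight). All 55450 identifiers were matched to GENCODE M21 for symbols, coordinates and exon lengths. Reads in no gene, ambiguous, low in quality, unaligned or not unique stayed out of library sizes. Those in no gene made up 42.3% to 45.6% of a library and 4.48% with manganese. Reads that map to several places were not counted.

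A minimum of 80 counts over the libraries left 15468 genes. The quasi-likelihood F-test of edgeR 4.0.16 (R 4.3.3) was run on a model of 6 groups without a block, with TMM scaling. It left 2 residual degrees of freedom, moderation added 8.53, and the biological coefficient of variation was 8.29%. SE was derived from F as the absolute log2 fold change over its root. Chi-square per degree of freedom between replicates was 5.98 (WT) and 13.3 (LSKO), above counting error. Replicate numbers did not pair the samples by label. The test was checked on simulated counts.

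The rule for naming took 16 hepatocyte members fixed by name and each member called in a comparison, with values in every library, and others by counts and ranges. Values of 2 members are not reported here, though they stay in every count. The members, lists and comparisons were chosen with earlier results of these data known. Alternatives were DESeq2 1.42.0, median-ratio size factors, no filter, a length and GC correction by robust regression (MASS 7.3.60.0.1) on natural splines with 4 degrees of freedom, genes without opposite-strand exons, each replicate left out, a replicate block and, chosen after seeing the data, leaving out the manganese library and the comparisons of 1 metal with the mean of others. Promoters are from RefSeq (GRCm38.p6). Shared windows are exact matches of 75 bases of a gene's longest GENCODE transcript in transcripts of other genes.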

Additional observations from a re-analysis of the deposited data

How the results depend on the processing

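Of the 603 settings run for single called members, 492 kept the call, 111 lost it and 0 changed sign. Counts of called members moved as follows. With DESeq2 they were 8 for untreated LSKO against WT (14 in the main test), 1 for iron (2), 2 for selenite (6) and 1 for zinc (2), and 1 for iron (7), 4 for selenite (10) and 0 for zinc (1) against the mean of the other 2 metals. Without genes that have opposite-strand exons they were 0 for manganese (3), 1 for iron, 2 for selenite and 1 for zinc, and 3, 3 and 0 against the other metals. That run dropped the 10 tested members with such exons, so their calls could not be kept. Among those dropped were Slc22a3, Slco2a1, Abcc10 and Abcc9, with their selenite calls, and Abcc9 also with its iron and zinc calls. With the length and GC correction the counts of called members were 1 for selenite, 1 for zinc and 3 for selenite against the mean of iron and zinc. Without a filter on low counts they were 5 for manganese, 7 for iron, 4 for zinc and 2 for zinc against the other metals. Leaving out 1 replicate gave 3 to 17 for untreated LSKO against WT, 10 to 18 for the metal libraries against WT (16), 4 to 5 for manganese, 3 to 6 for iron, 6 to 8 for selenite, 1 to 3 for zinc, and 6 to 9, 7 to 11 and 0 to 2 for the 3 comparisons against other metals. A replicate block, fitted for untreated LSKO against WT, also called 14, and Slco1a4 (adjusted p = 0.0649) and Slco1b2 (0.0626) lost the call under it. The deviations of same-numbered libraries had a correlation of -0.0920. Without the manganese library untreated LSKO against WT gave 16. Depth limits genes with few reads, such as Slc22a27, Slco5a1 and Slco1a4, and each metal rests on 1 library.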
